A study of Mus musculus with 12 samples.

Results

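Integrins and the core of the focal adhesion were followed across 2 related mouse osteosarcoma cell lines and across serial passaging of each. The set holds 34 genes, namely 18 integrin alpha subunits, 8 integrin beta subunits and 8 proteins of the focal adhesion core, out of 20144 genes that the probes of the arrays could be matched to. The genes were listed by their known function, with earlier results of these data known, and were found by the accession of their probes. Itga10 and Itgae had no matched probe, so that 32 members were measured, by 46 probes. Where several probes matched a gene, the brightest on average stands for it, and the others are named where they disagree.

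Dunn is a mouse osteosarcoma line of low metastatic potential. LM8 was derived from it by selection in vivo for metastasis, and both lines carry the label osteoblastic. Dunn cells were studied at passage 25 (early) and 86 (late), and LM8 cells at passage 24 (early) and 91 (late), with 3 arrays for each of the 4 groups and 12 arrays in all. All 4 groups were grown in the same serum-containing medium without any further treatment, late cells had been raised from the early ones, and frozen cells of each kind were thawed and passaged a few more times before their total RNA was taken. The design text calls the replicates of a condition independent. One field of the labels speaks of human cells, whereas the organism and line fields name mouse lines. Each line is a single lineage at each passage, and in bulk RNA fewer cells expressing a gene and less RNA in each cell cannot be told apart.

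Integrins are receptors made of 1 alpha and 1 beta subunit that span the cell membrane. Outside the cell they hold collagen, laminin, fibronectin or counter-receptors on other cells, and inside it their beta tails are bound by talin and kindlin, which link them through vinculin, the ILK and parvin complex and zyxin to actin, and to signalling through focal adhesion kinase and paxillin. In bone, osteoblasts use collagen and fibronectin receptors to hold their matrix, and in carcinomas and sarcomas the same receptors take part in migration and anchorage.

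Promoters are shown for the 3 alpha subunits with the largest differences and for zyxin, the core protein with the largest difference between the lines with passages pooled. Each runs from 250 bases before to 50 bases after a RefSeq start site on the strand of the gene, in the build GRCm38.p6, with capitals marking matches on either strand to GGGCGG (a GC box) or to TGANTCA (an AP-1 motif). Itga11 is at chr9:62677605-62677904 on the plus strand, Itga3, by the first of its 2 start sites, at chr11:95076665-95076964 on the minus strand, Itga8 at chr2:12301895-12302194 on the minus strand and Zyx at chr6:42349578-42349877 on the plus strand.
Itga11: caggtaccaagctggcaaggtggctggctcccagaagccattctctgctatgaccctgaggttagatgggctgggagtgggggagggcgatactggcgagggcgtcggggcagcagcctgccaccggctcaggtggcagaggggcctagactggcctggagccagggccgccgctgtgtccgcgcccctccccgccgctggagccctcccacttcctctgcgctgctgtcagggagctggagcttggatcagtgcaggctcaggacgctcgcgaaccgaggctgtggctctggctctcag
Itga3: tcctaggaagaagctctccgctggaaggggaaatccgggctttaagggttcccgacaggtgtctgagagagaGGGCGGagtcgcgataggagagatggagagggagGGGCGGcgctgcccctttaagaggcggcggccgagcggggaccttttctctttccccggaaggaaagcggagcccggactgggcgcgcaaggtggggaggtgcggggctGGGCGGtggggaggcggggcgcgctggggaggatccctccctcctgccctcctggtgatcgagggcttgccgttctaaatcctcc
Itga8: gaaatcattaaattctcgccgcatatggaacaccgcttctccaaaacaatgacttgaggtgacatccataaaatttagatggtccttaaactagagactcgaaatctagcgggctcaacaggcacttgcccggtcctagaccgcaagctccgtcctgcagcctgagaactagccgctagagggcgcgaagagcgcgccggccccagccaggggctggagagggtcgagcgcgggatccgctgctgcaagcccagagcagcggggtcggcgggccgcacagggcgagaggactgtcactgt
Zyx: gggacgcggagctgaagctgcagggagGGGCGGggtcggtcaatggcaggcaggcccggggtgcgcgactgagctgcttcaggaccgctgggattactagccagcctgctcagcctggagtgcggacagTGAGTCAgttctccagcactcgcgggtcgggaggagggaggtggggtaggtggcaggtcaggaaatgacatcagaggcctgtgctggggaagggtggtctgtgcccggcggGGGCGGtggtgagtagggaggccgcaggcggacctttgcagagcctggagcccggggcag
Itga3 held 3 GC boxes in this window and Zyx 2, and Zyx also held 1 AP-1 motif. Neither motif was found in the windows of Itga11 and Itga8, nor was the RUNX motif TGTGGT, the TEAD motif GGAATG, the TATA box TATAAA or the CArG box of serum response factor, which were searched on both strands too. Over all 32851 promoters of the RefSeq table, 35.7% held the GC box, 7.8% the AP-1 motif, 16.8% the RUNX, 14.7% the TEAD and 13.6% the TATA letters, and 1.6% the CArG box. Of the 26 promoters given for 23 of the members, 13 held the GC box, 4 the AP-1, 5 the RUNX and 3 the TEAD motif, and none held TATAAA. The CArG box, at which serum response factor binds, stood in 3 of them, those of Vcl, Fermt2 and 1 of 2 for Itgb6.

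Values are log2 signals from which the 75th percentile of the array was subtracted, so that 0 is that percentile and 1 unit is 2-fold. They are compared for the same gene between groups and not between genes. A probe well above background is one that the scanner software marked so. A member was called changed when its adjusted p (limma, Benjamini-Hochberg over all probes) was under 0.05 and its probe was well above background on all arrays of at least 1 of the groups compared. A second level, over 2-fold at an unadjusted p under 0.05 on the same condition, is given beside it.

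Of the 32 measured members, 21 were well above background on every array that gave a value, and 24 met the condition in each comparison: 11 alpha subunits, 5 beta subunits and all 8 core proteins. Itga2, Itga2b, Itga4, Itgad, Itgax, Itgb3, Itgb6 and Itgb8 did not, and were well above background on at most 4 of 12 arrays each. Itga2 is a collagen receptor subunit, Itga2b and Itgb3 form the platelet fibrinogen receptor, Itga4 binds fibronectin and VCAM-1, Itgad and Itgax are leukocyte subunits, and Itgb6 and Itgb8 pair with Itgav. Over all genes, 58.9% met the condition in the comparison of the lines with passages pooled, against 75% of the members.

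The arrays differed in brightness between groups, by line and, in Dunn, also by passage. The 75th percentile of the signal ran from 287 to 603 in early Dunn, from 686 to 961 in late Dunn, from 893 to 1316 in early LM8 and from 1166 to 1903 in late LM8 cells. Replicates of a group correlated between 0.961 and 0.991 over probes, except late Dunn replicate 1, which correlated at 0.919 and 0.923 with the other two, and early Dunn replicate 1 had a median local background of 87 against 22.5 to 34 on the other arrays. Both arrays were on slide 1. Arrays of the same replicate number shared 1 of 3 slides and each group always took the same place on a slide, so that place and group cannot be told apart.

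With passage, 0 of 32 members were called in Dunn cells, where 0.00497% of all genes were called, every one of them downwards. In Dunn cells 4 members passed the 2-fold level (3.87% of all genes), 1 of them upwards (1.23%) and 3 downwards (2.64%). Without scaling, 4 passed it upwards and 0 downwards. On simulated data this comparison did not recover the planted changes, so that its count of called members does not show that none changed. In LM8 cells 1 member was called, downwards, against 2.45% of all genes (0.908% higher and 1.54% lower). The same member alone passed the 2-fold level there (4.29%, with 2.02% higher and 2.27% lower). The interaction of line and passage called 2 members, both negative, against 0.606% of all genes (0.348% positive and 0.258% negative), and both passed the 2-fold level (4.7%, with 2.78% positive and 1.92% negative).

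LM8 was called lower than Dunn for 1 member at early passage, against 3.38% of all genes (1.33% higher and 2.06% lower), and for 4 at late passage, against 3.54% (1.25% higher and 2.29% lower). On simulated data the early comparison recovered 0% of planted log2 differences of 2 in either direction. The late one recovered 18% of rises and 8% of falls. Few simulated probes were changed and dim ones were included, so that these rates are not those of the members above background. The counts of called members do not show that the other members were unchanged. With passages pooled, 14 members were called, or 43.8% of those measured against 21.9% of all genes. Of these, 13 were lower in LM8 (40.6% against 16.2%) and 1 was higher (5.69% of all genes). Without scaling, 4 members were called, 3 higher and 1 lower. Without slide 1, 4 of the 14 remained called (Itga3, Itga8, Ptk2 and Zyx), and between 8 and 18 members were called when single arrays were dropped. The number of all genes called fell from 4402 to 1325 without slide 1. At the 2-fold level, 9 members were lower at early passage (12.8% of all genes, with 4.6% higher and 8.23% lower), whereas without scaling 6 were higher and 0 lower. At late passage 8 members passed it (10.2%), 7 lower (5.44%) and 1 higher (4.79%), and with passages pooled 7 did (10.6%), all lower (5.57%, beside 4.98% higher). In the unscaled values 2 members were higher and 3 lower at late passage, and 3 were higher and 1 lower with passages pooled. The comparisons share arrays and are given side by side, not as independent results.

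**Figure D1:**
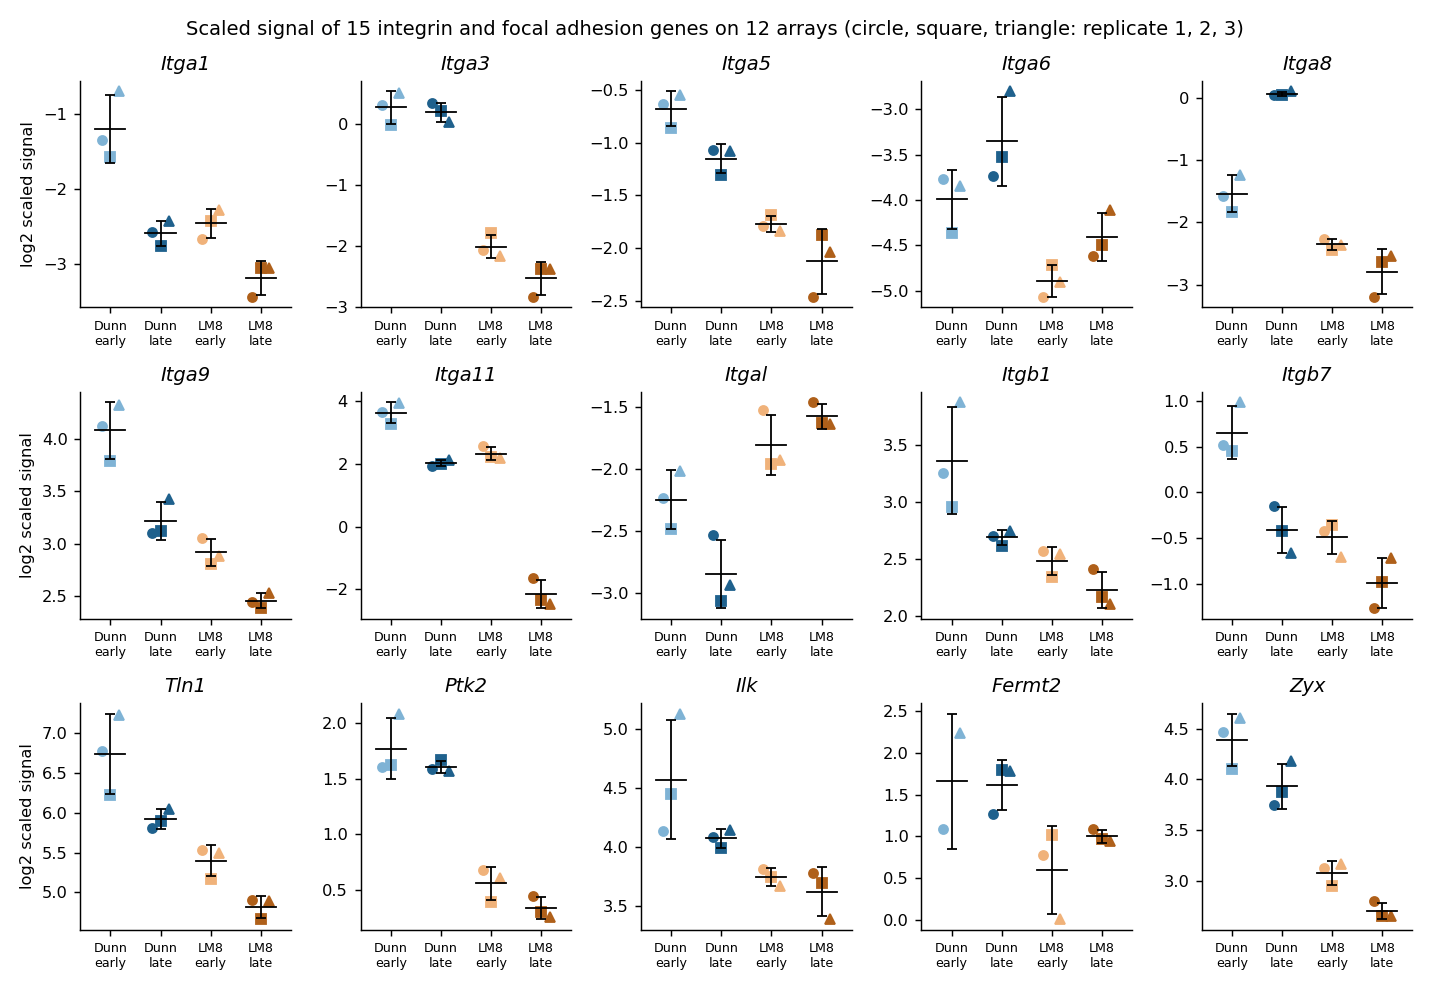
Log2 scaled signal (vertical axes, 0 is the 75th percentile of an array) of the 15 members that were called in a comparison or passed the 2-fold level with passage, on each of 12 arrays. Points are arrays, with replicate 1 as circle, 2 as square and 3 as triangle, horizontal lines are means and bars SD of a group (n = 3, or 2 for Fermt2 in early Dunn); Itga11 falls to about -2.17 in late LM8 cells, and Itga3, Ptk2, Zyx and Tln1 are lower on all LM8 than on all Dunn arrays.

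Of the collagen-binding subunits, Itga11 had the largest change of all members above background. Itga11 is the alpha subunit of a collagen I receptor of mesenchymal cells. In Dunn cells its log2 signal was 3.67, 3.29 and 3.95 at early and 1.94, 2.01 and 2.13 at late passage. In LM8 cells it was 2.56, 2.23 and 2.21 at early and -1.66, -2.35 and -2.49 at late passage. All late arrays lay below all early arrays of their line, and the late LM8 arrays lay far below the rest. The fall in LM8 cells was 22.6-fold (log2 difference -4.50 ± 0.27, SE, n = 3 against 3, limma adjusted p = 0.000835), from a mean of 2.33 ± 0.20 to -2.17 ± 0.45 (SD). It was -4.22, -4.58 and -4.70 within the 3 slides, and stayed called without any single array (adjusted p from 0.00295 to 0.0078). In Dunn cells the difference with passage was -1.61 ± 0.32 (SE), 3.06-fold lower at an unadjusted p of 0.00256 from limma, and did not pass the adjustment (adjusted p = 0.439).

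The interaction tests whether passage changed Itga11 alike in both lines. The change in LM8 minus that in Dunn was -2.89 ± 0.40 (SE, 12 arrays, limma adjusted p = 0.0144). This call was lost when early LM8 replicate 1 or 2, late LM8 replicate 2 or 3 or late Dunn replicate 3 was left out (limma adjusted p from 0.0509 to 0.064 without each), and without slide 1 (-3.09, adjusted p = 0.057). Between the lines, Itga11 was 18.3-fold lower in LM8 at late passage (-4.19 ± 0.30, SE, limma adjusted p = 0.00344), a call that was lost with the slide as a replicate block (adjusted p = 0.0662), and by -1.31 ± 0.32 at early passage (limma adjusted p = 0.0776). With passages pooled the difference was -2.75 ± 0.98 (limma adjusted p = 0.0413), over LM8 arrays that ran from -2.49 to 2.56 and overlapped with Dunn, and was not called with the slide as a replicate block (adjusted p = 0.0512) or under quantile normalization (0.0915).

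Itga1, the other collagen receptor subunit above background, lay at -1.34, -1.57 and -0.69 in early and -2.58, -2.76 and -2.42 in late Dunn cells. It lay at -2.66, -2.43 and -2.28 in early and -3.44, -3.05 and -3.06 in late LM8 cells. The early Dunn arrays were thus the highest, and late lay below early in each line without overlap. The difference with passage was 2.62-fold downwards in Dunn (-1.39 ± 0.36, SE) at an unadjusted p of 0.00886 from limma (adjusted p = 0.636) and -0.73 ± 0.21 in LM8 (limma adjusted p = 0.199). Its second probe did not show the difference in Dunn (0.25, limma adjusted p = 0.958), and was well above background on 3 of the 6 Dunn arrays.

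**Figure D2:**
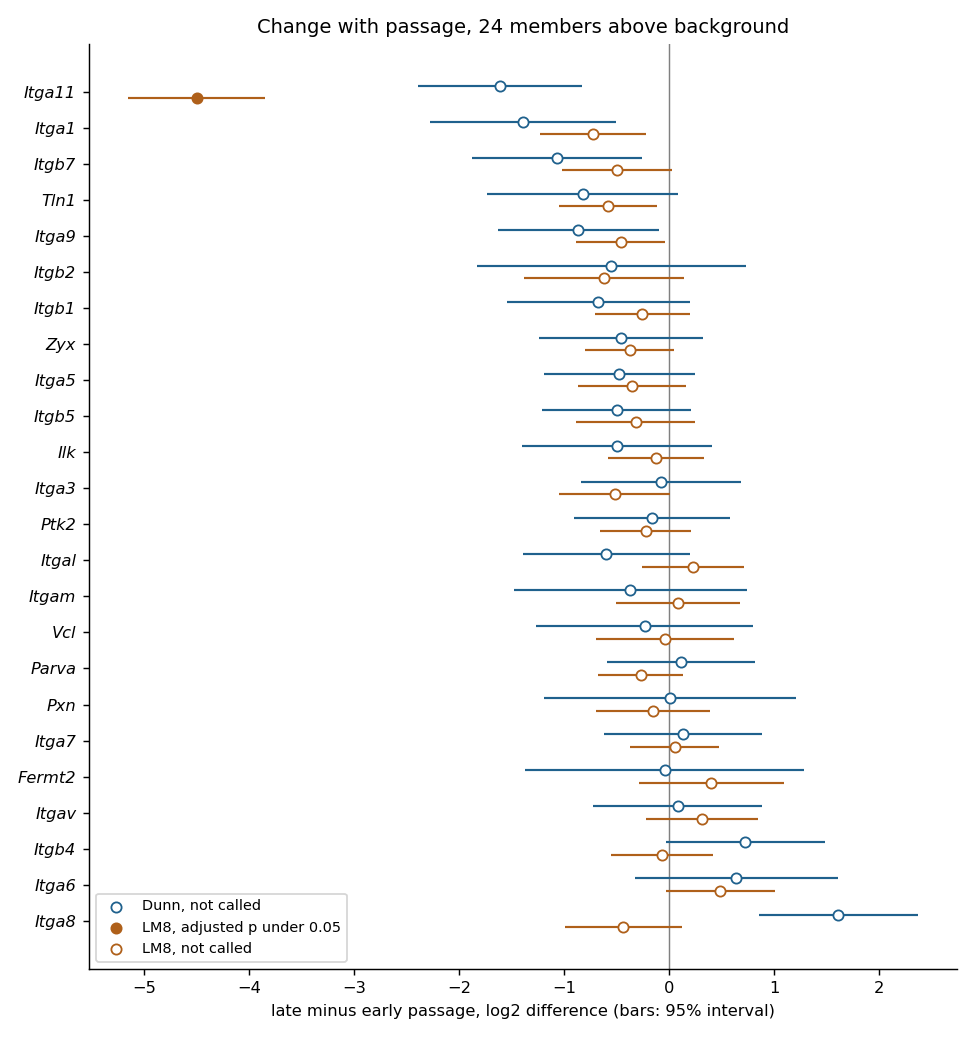
Late minus early passage as a log2 difference (horizontal axis) for the 24 members above background, in Dunn (blue) and LM8 (brown), with 95% intervals of the limma fit; filled points are called at an adjusted p under 0.05. Itga11 in LM8 is the 1 filled point at -4.50, and Itga8 is the member whose interval lies above 0 in Dunn.

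Itga3 had the lowest adjusted p of the members above background between the lines. It pairs with Itgb1 as a laminin receptor. It lay at 0.32, -0.01 and 0.51 in early and 0.34, 0.21 and 0.03 in late Dunn cells, and at -2.08, -1.80 and -2.17 in early and -2.85, -2.38 and -2.38 in late LM8 cells. Every LM8 array was well below every Dunn array. The signal in LM8 was 4.88-fold lower at early passage (-2.29 ± 0.31, SE, limma adjusted p = 0.0143), 6.62-fold lower at late passage (-2.73 ± 0.25, limma adjusted p = 0.00734) and 5.68-fold lower with passages pooled (-2.51 ± 0.20, SE, 6 arrays against 6, limma adjusted p = 8.28e-06). The pooled call held without any single array and with the slide as a replicate block. Without any scaling between arrays it was -1.34 and remained called (limma adjusted p = 0.0146). Neither the early nor the late call of Itga3 held in that setting. The early call was lost with the block (adjusted p = 0.0787), with normexp background correction (0.0551), without slide 1 (0.0762) and without any 1 of the early LM8 arrays or early Dunn replicate 3 (0.0604 to 0.0992), and the late call with the block (0.0952) and without late LM8 replicate 2 or 3 (0.0651 and 0.0588). With passage Itga3 differed by -0.08 ± 0.31 in Dunn and -0.52 ± 0.22 in LM8 (limma adjusted p = 0.992 and 0.297).

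The other laminin receptor subunits are Itga6 and Itga7. Itga6, which pairs with Itgb1 or Itgb4, lay at -3.77, -4.36 and -3.84 in early Dunn, -3.74, -3.52 and -2.80 in late Dunn, -5.07, -4.72 and -4.90 in early LM8 and -4.62, -4.49 and -4.11 in late LM8 cells. The lines did not overlap at either passage, though late LM8 and early Dunn did. With passages pooled Itga6 was 1.97-fold lower in LM8 (-0.98 ± 0.26, SE, limma adjusted p = 0.0236), which was not called under quantile normalization (-0.57, adjusted p = 0.405). Itga7, known from muscle, was not called. It differed by -0.27 with passages pooled (95% interval from -0.62 to 0.07).

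Among subunits that read the RGD motif of fibronectin and other ligands, Itga8 and Itga5 differed between the lines and Itgav was not called. Itga8 was at -1.57, -1.83 and -1.23 in early Dunn and 0.05, 0.05 and 0.11 in late Dunn cells, against -2.26, -2.44 and -2.37 in early and -3.20, -2.63 and -2.54 in late LM8 cells. The late Dunn arrays stood above all others. The difference with passage in Dunn was 3.06-fold upwards (1.61 ± 0.31, SE) at an unadjusted p of 0.00217 from limma and failed the adjustment over all probes (adjusted p = 0.422). It was 1.62, 1.87 and 1.34 within the 3 slides. In LM8 cells Itga8 differed by -0.44 ± 0.23 with passage (limma adjusted p = 0.313).

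The interaction for Itga8 was -2.05 ± 0.35 (SE, 12 arrays, limma adjusted p = 0.0449). The call held in 2 of 12 fits that left out 1 array each, those without late Dunn replicate 1 or early Dunn replicate 3, and the other 10 gave an adjusted p between 0.0766 and 0.147. It was lost with the slide as a replicate block (adjusted p = 0.0641), without slide 1 (0.246) and with normexp background correction (-1.56, adjusted p = 0.326). Without scaling the interaction was -2.65 and not called (limma adjusted p = 0.112). At late passage LM8 was 7.26-fold below Dunn in Itga8 (-2.86 ± 0.26, SE, limma adjusted p = 0.00765), lost with the block (0.0856) and without late LM8 replicate 2 or 3 (0.0664 and 0.0515). Leaving the arrays unscaled ended this late call too. At early passage the difference was -0.81 ± 0.31 (limma adjusted p = 0.0917), and pooled it was -1.84 ± 0.38 (limma adjusted p = 0.00766).

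Itga5, the partner of Itgb1 in the classical fibronectin receptor, lay at -0.63, -0.86 and -0.54 in early and -1.06, -1.31 and -1.08 in late Dunn cells. In LM8 cells it lay at -1.79, -1.68 and -1.84 at early and -2.46, -1.88 and -2.04 at late passage. All LM8 arrays were below all Dunn arrays. It was 2.05-fold lower in LM8 with passages pooled (-1.03 ± 0.20, SE, limma adjusted p = 0.00555), and 2.13-fold and 1.96-fold lower at early and late passage (limma adjusted p = 0.0776 and 0.129). Itgav, the alpha subunit of the vitronectin receptors, differed by 0.16 (95% interval from -0.26 to 0.58), and its second probe by 0.03.

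Itga9, a receptor subunit for tenascin and osteopontin, was at 4.12, 3.79 and 4.32 in early Dunn, 3.10, 3.12 and 3.43 in late Dunn, 3.06, 2.81 and 2.89 in early LM8 and 2.45, 2.39 and 2.53 in late LM8 cells. Late lay below early in both lines and LM8 below Dunn on all arrays. The difference between the lines was -0.96 ± 0.25 (SE, 1.95-fold, limma adjusted p = 0.0223) with passages pooled, and was lost without late LM8 replicate 2 (0.0563) or 3 (0.0527). With passage it was -0.86 ± 0.31 in Dunn and -0.46 ± 0.18 in LM8 (limma adjusted p = 0.782 and 0.297).

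Integrin subunits known from leukocytes were measured in these sarcoma lines too. Itgal, the alpha subunit of LFA-1, was the member called higher in LM8. It lay at -2.23, -2.49 and -2.02 in early and -2.53, -3.07 and -2.94 in late Dunn cells, and at -1.52, -1.95 and -1.93 in early and -1.46, -1.63 and -1.63 in late LM8 cells. All LM8 arrays were above all Dunn arrays, by 1.81-fold with passages pooled (0.86 ± 0.22, SE, limma adjusted p = 0.0185) and by 2.41-fold at late passage (limma adjusted p = 0.0637). A second probe gave 0.94 pooled (limma adjusted p = 0.0312), whereas with normexp background correction the value was 0.27 (adjusted p = 0.421). Itgb2, its beta partner, differed by -0.74 ± 0.34 (SE, limma adjusted p = 0.0846) and Itgam by -0.58 ± 0.25 (limma adjusted p = 0.0773), both over groups that overlapped.

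Itgb7, which pairs with Itga4 and Itgae in lymphocytes, was at 0.52, 0.45 and 0.98 in early and -0.15, -0.42 and -0.66 in late Dunn cells, and at -0.42, -0.36 and -0.70 in early and -1.27, -0.98 and -0.72 in late LM8 cells. The early Dunn arrays were the highest, and late Dunn overlapped with early LM8. The difference with passage in Dunn was 2.09-fold downwards at an unadjusted p of 0.0184 from limma (adjusted p = 0.779). LM8 was 1.82-fold lower with passages pooled (-0.86 ± 0.30, SE, limma adjusted p = 0.0373). Of 10 leukocyte markers, 5 were well above background on 2 arrays or fewer, among them Ptprc (CD45) on 2 and Laptm5 on none, and 3 (Cd3e, Cd14 and Csf1r) on 11 or 12. Their summed signal, in units of the 75th percentile, was 0.56 to 1.11 in early Dunn, 0.471 to 1.08 in late Dunn, 0.866 to 1.38 in early LM8 and 0.65 to 0.973 in late LM8 cells, and Coro1a, well above background on 3 of 6 Dunn arrays, was higher in LM8 by 2.60 ± 0.27 (SE, limma) with passages pooled. The part of such cells in the values of Itgal and Itgb7 was not tested.

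Itgb1, the beta partner of most alpha subunits above, was at 3.26, 2.95 and 3.87 in early and 2.70, 2.61 and 2.75 in late Dunn cells, and at 2.56, 2.34 and 2.54 in early and 2.41, 2.16 and 2.11 in late LM8 cells. LM8 lay below Dunn on all arrays, by 1.59-fold with passages pooled (-0.67 ± 0.23, SE, limma adjusted p = 0.0378). A second probe, well above background on all arrays, differed by 0.02 (limma adjusted p = 0.956), so that the 2 probes of Itgb1 disagree. Itgb5, a partner of Itgav, and Itgb4, the partner of Itga6 in hemidesmosomes, were not called in any comparison. Their pooled differences were -0.37 (95% interval from -0.83 to 0.09) and 0.18 (from -0.30 to 0.66).

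Itgb3, of the vitronectin and fibrinogen receptors, did not meet the background condition and was not counted as called. It was at -5.58, -5.93 and -2.64 in early and -4.49, -3.99 and -4.06 in late Dunn cells, and between -9.17 and -8.24 in LM8 cells. Its probe was well above background on 1 of 3 early Dunn, 2 of 3 late Dunn and no LM8 arrays. All LM8 arrays read below all Dunn arrays, but since 3 of the 6 Dunn arrays were not well above background either, no fold is given.

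**Figure D3:**
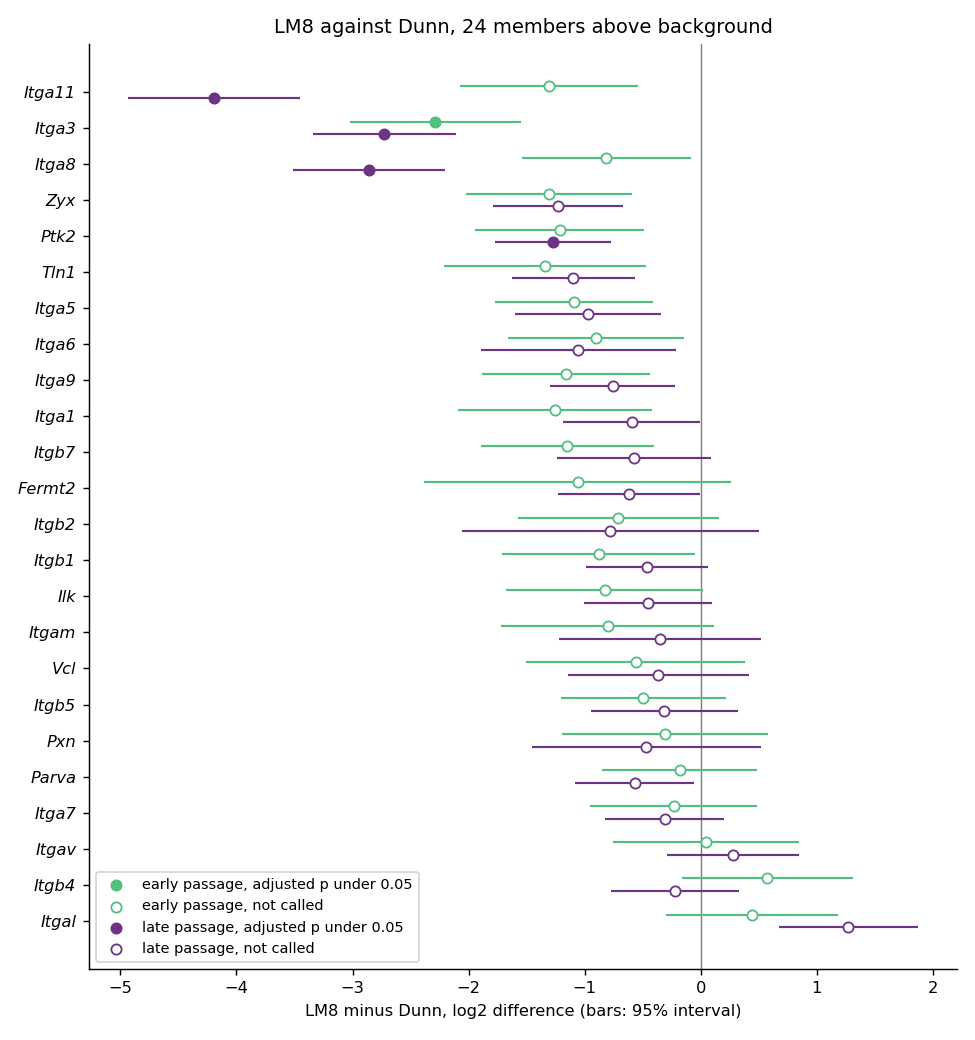
LM8 minus Dunn as a log2 difference (horizontal axis) at early (green) and late (purple) passage for the 24 members above background, with 95% intervals of the limma fit; filled points are called at an adjusted p under 0.05. Of the members, 21 lie below 0 at early and 22 at late passage, beside 65.9% and 60.6% of all genes above background. Itga11, Itga3 and Itga8 are the lowest at late passage. The 2 passages share no arrays but the same 3 slides, and late cells were raised from early ones.

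In the focal adhesion core, 5 of 8 proteins were called lower in LM8 with passages pooled and none higher, against 16.2% and 5.69% of all genes. Ptk2, which encodes focal adhesion kinase, was at 1.61, 1.62 and 2.09 in early and 1.59, 1.67 and 1.57 in late Dunn cells, and at 0.68, 0.40 and 0.60 in early and 0.45, 0.31 and 0.25 in late LM8 cells. Each line kept a narrow range and the ranges were apart. LM8 was 2.37-fold lower with passages pooled (-1.24 ± 0.17, SE, limma adjusted p = 0.000529), 2.42-fold at late passage (-1.27 ± 0.20, limma adjusted p = 0.039) and 2.32-fold at early passage (limma adjusted p = 0.0776). The late call was lost with the slide as a replicate block (0.181) and when any late LM8 array or late Dunn replicate 2 or 3 was left out (0.0974 to 0.239). Leaving the arrays unscaled ended it too.

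Zyx, encoding zyxin, an actin-associated LIM protein of mature adhesions, was at 4.46, 4.10 and 4.60 in early and 3.75, 3.88 and 4.18 in late Dunn cells, and at 3.13, 2.95 and 3.17 in early and 2.80, 2.66 and 2.66 in late LM8 cells. All LM8 arrays were below all Dunn arrays. The pooled difference was 2.41-fold (-1.27 ± 0.20, SE, limma adjusted p = 0.00155), and those at early and late passage were -1.31 and -1.23 (limma adjusted p = 0.0676 and 0.0586).

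Tln1, encoding talin, which binds the beta tail and activates integrins, was at 6.78, 6.22 and 7.23 in early and 5.81, 5.90 and 6.05 in late Dunn cells, and at 5.53, 5.17 and 5.50 in early and 4.90, 4.66 and 4.89 in late LM8 cells. The groups were ordered with early Dunn highest and late LM8 lowest, and none of the 4 overlapped. LM8 was 2.33-fold lower with passages pooled (-1.22 ± 0.28, SE, limma adjusted p = 0.0122), and a second probe gave -1.39 (adjusted p = 0.0197). Without slide 1 the value was -1.29 and not called (adjusted p = 0.0596).

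Ilk, the integrin-linked pseudokinase, was at 4.14, 4.44 and 5.13 in early and 4.08, 3.99 and 4.15 in late Dunn cells, and at 3.81, 3.75 and 3.66 in early and 3.78, 3.70 and 3.38 in late LM8 cells. All LM8 arrays lay below all Dunn arrays. It was 1.56-fold lower in LM8 with passages pooled (-0.64 ± 0.22, SE, limma adjusted p = 0.0348). Fermt2, the kindlin of mesenchymal cells, gave 1.08 and 2.23 on early Dunn replicates 1 and 3 (replicate 2 was left out as an outlier spot), 1.27, 1.79 and 1.79 in late Dunn, 0.77, 1.02 and 0.00 in early LM8 and 1.09, 0.96 and 0.95 in late LM8 cells, with 1 early Dunn array in the range of LM8. Its pooled difference was -0.83 ± 0.28 (SE, limma adjusted p = 0.0347), and its second probe gave -0.94 (limma adjusted p = 0.00374). The pooled calls of Itga11, Itgb1, Itgb7 and Fermt2 were each lost on leaving out any 1 of 8 arrays, and that of Ilk on any 1 of 9 (limma adjusted p from 0.0505 to 0.0892 over these 5 genes); late Dunn replicate 1, early Dunn replicate 3, early LM8 replicate 3 and each late LM8 array were among them for all 5.

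Vcl (vinculin, 1 early Dunn value left out as an outlier spot), Pxn (paxillin) and Parva (alpha-parvin) were not called. Their pooled differences were -0.44 (95% interval from -0.93 to 0.04), -0.39 (from -0.94 to 0.16) and -0.38 (from -0.72 to -0.03). The probes of Parva disagreed, as one other gave -1.10 (limma adjusted p = 0.00838) and another -0.20, and the second probe of Vcl gave -0.64 (limma adjusted p = 0.0454). With passage, no core protein was called in either line, and the differences ran from -0.82 (Tln1, Dunn) to 0.40 (Fermt2, LM8).

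As a whole, the 24 members above background had, as a description, a median pooled difference of -0.79 between LM8 and Dunn, with 21 below 0, beside a median of -0.26 and 63.7% below 0 over the 11859 genes above background. At early passage the medians were -0.85 and -0.34, and at late passage -0.59 and -0.18. With passage the members' median was -0.41 in Dunn and -0.26 in LM8, against -0.22 and -0.05 over all such genes. The early Dunn arrays, dimmest of the 12, enter both the Dunn passage and the early line comparison, so these values are not independent.

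**Figure D4:**
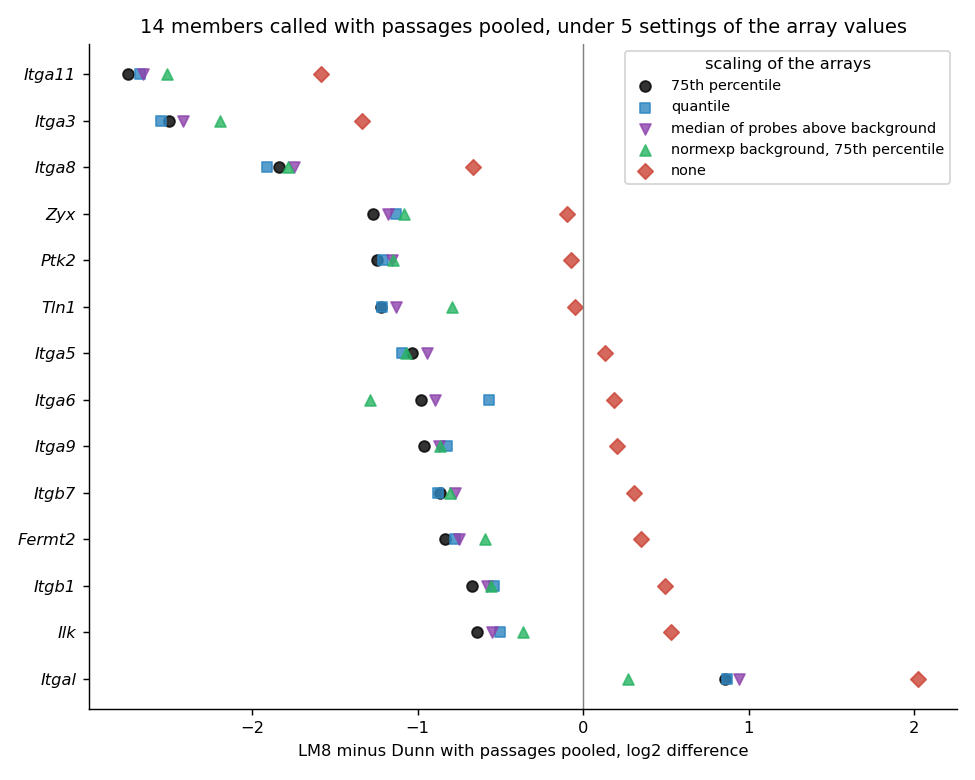
LM8 minus Dunn with passages pooled as a log2 difference (horizontal axis) for the 14 members called, under the 75th percentile, quantile, median and normexp settings and without scaling. The no-scaling points lie to the right of the others, with 7 members that were below 0 now above it beside Itgal, which was above 0 throughout.

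Directions rest on how arrays of unequal brightness were scaled. In the deposited table without scaling, the pooled difference of the median probe above background was 0.94 in place of -0.21, and Itga5 (0.13), Itga6 (0.19), Itga9 (0.21), Itgb1 (0.50), Itgb7 (0.31), Ilk (0.53) and Fermt2 (0.35) turned to the other sign, though each stayed below that median. Itga11, Itga3 and Itga8 remained lower in LM8 at -1.58, -1.34 and -0.67, and Zyx, Ptk2 and Tln1 were near 0 (-0.10, -0.08 and -0.05). For the late LM8 against late Dunn comparison of Itga11 the unscaled value was -3.33 (limma adjusted p = 0.0107).

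Around the core, 29 of 30 further adhesion adaptors were measured. With passages pooled, 13 were called lower in LM8 and none higher, against 16.2% and 5.69% of all genes, led by Tln2, a second talin (-1.51 ± 0.18, SE, limma adjusted p = 0.000213), Rsu1 of the ILK complex (-1.28 ± 0.25) and Pdlim7 (-1.21 ± 0.30). At early passage, Tln2 was called lower (-1.47 ± 0.29), as was Lpxn (leupaxin). Lpxn was not well above background on any early LM8 array and met the background condition through Dunn only, so that no fold is given. At late passage, Tns1 (tensin) and Tln2 were called at -2.07 ± 0.26 and -1.55 ± 0.24, and Kank1, a talin-binding protein, was called lower too. Kank1 was not well above background on any late LM8 array and met the background condition through Dunn only, so that no fold is given. No adaptor was called with passage in either line. Without slide 1, 3 adaptors were called with passages pooled, and with the slide as a replicate block 1 was called at early and 1 at late passage.

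Of 26 adhesion signalling genes, 4 were called lower and 1 higher in LM8 with passages pooled, against 16.2% and 5.69% of all genes, which is near the background. Pak1, a kinase downstream of Rac and Cdc42, had the largest difference (-4.03 ± 0.28, SE, limma adjusted p = 2.44e-06), from a mean of -1.45 ± 0.47 in Dunn to -5.48 ± 0.47 (SD, n = 6) in LM8 cells. The gene called higher was Ptprf, a receptor phosphatase, whose probe was well above background on 6 of 6 LM8 but 1 of 6 Dunn arrays and whose values overlapped between the lines, so that no difference is given. Crk, an adaptor, differed by -1.29 ± 0.30. Pak1 was called at early passage (-4.73 ± 0.31) and at late passage (-3.34 ± 0.32) too, the late call being lost with the slide as a replicate block.

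Of 21 integrin ligands and counter-receptors, 5 were called lower in LM8 with passages pooled, against 16.2% of all genes and 21.9% in either direction, so that the count is near the background. They were led by the matricellular Ccn1 (-1.67 ± 0.26, SE), Mfge8 (-1.32 ± 0.24) and fibronectin, Fn1 (-0.94 ± 0.22). In late against early LM8 cells, 3 of the 21 were called lower, against 1.54% of all genes. They were the laminin chain Lama5 (-1.81 ± 0.23), Ccn2 (-1.71 ± 0.17, limma adjusted p = 0.00437) and Icam2 (-1.40 ± 0.22), beside Itga11. Between 1 and 3 ligands were called in LM8 with passage when single arrays were dropped. Late LM8 was called below late Dunn for Ccn1 (-1.89 ± 0.27) and Mfge8 (-1.27 ± 0.21), where 2.29% of all genes were called lower. With the slide as a replicate block 0 of these were called, and 2 ligands were called with passages pooled without slide 1.

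Osteoblast markers were checked against the label. Of 8 with a probe, 5 (Runx2, Sp7, Alpl, Ibsp and Col1a1) were well above background on 11 or 12 arrays. With passages pooled Phex (3.73 ± 0.52, SE, well above background on 3 of 6 Dunn arrays) and Alpl (1.03 ± 0.37) were called higher in LM8, and Spp1 and Ibsp, which are also integrin ligands, lower, at -0.93 ± 0.33 and -0.81 ± 0.27. Epithelial markers other than Krt14 were well above background on 2 arrays or fewer. Of the endothelial markers, Cdh5 was so on none and Vwf and Kdr on all 12. Their summed signal, in units of the 75th percentile, was 7.55 to 12.8 in early Dunn and between 3.47 and 4.49 in the other groups. Its part in the values of members that were highest in early Dunn was not tested.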

How the data were processed

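Total RNA of 12 cultures was hybridised to 1-colour Agilent arrays. The deposited intensity values are processed signals of Agilent Feature Extraction 10.7.3 (per the submitters' processing notes), with background already subtracted by the authors' software. The deposited series table holds the same signals without scaling. Outlier-flagged and control spots were left out, log2 signals were reduced by the 75th percentile of each array, and spots of a probe were averaged, which gave 39429 probes. Of these, 26581 (67.4%) were matched by accession to 20144 genes of the RefSeq table (GRCm38.p6). Each gene was taken by its probe with the highest mean signal. Differences were tested with limma 3.58.1 in R 4.3.3 on the groups compared, with Benjamini-Hochberg adjustment over all probes, and the interaction on 12 arrays. The fit was tested on simulated data, in which a small share of 37015 probes of any brightness was changed. Its recovery is thus not that of members above background. Of planted log2 rises of 2, 62% were recovered in the LM8 passage comparison and 46% between the lines with passages pooled. Of falls of 2, 64% and 60% were recovered there. Between the lines at late passage, 18% of rises and 8% of falls were recovered. In either direction, recovery was 0% in the Dunn passage comparison, 0% between the lines at early passage and 12% in the interaction. The members and gene lists were chosen with earlier results of these data known.

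Genes given by every array were the members called in any comparison and those over 2-fold at an unadjusted p under 0.05 with passage. Replicate number equals slide. Over 18 pairs of groups and numbers, same-numbered deviations correlated between -0.237 and 0.678, with 12 pairs over 0.1. Those of early and late Dunn arrays correlated at 0.678, 0.636 and 0.226 on slides 1, 2 and 3. The numbers were taken to mark a shared slide, which the fits given leave out and the slide as a block takes in. Alternatives were normexp background correction (on median signals, since mean signals were not in the files used, offset 50), quantile and median scaling, no scaling, a filter on dim probes, 1 fit over all groups, array weights, no background condition, any probe of a gene, a plain test as in the methods, the slide as a block and leaving out arrays. Leaving out slide 1 was chosen after seeing the data. The number of arrays limits the precision. Some marker results are not reported here.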

Additional observations from a re-analysis of the deposited data

Results flagged for a closer look

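The change with passage differed between the lines for 2 members by a test of the difference itself. For Itga11 the change in LM8 minus that in Dunn was -2.89 (limma adjusted p = 0.0144, 12 arrays), and late lay below early in both lines. For Itga8 it was -2.05 (limma adjusted p = 0.0449), with late Dunn above early Dunn and late LM8 below early LM8 on all arrays. Without slide 1 neither difference passed the threshold (limma adjusted p = 0.057 and 0.246). On leaving out 1 array at a time, the call of Itga8 was lost in 10 of 12 fits and that of Itga11 in 5. The call of Itga8 was lost too with the slide as a replicate block (limma adjusted p = 0.0641), normexp (0.326) and no scaling (0.112).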

How the results depend on the processing

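With passage, 0 members were called in Dunn and 1 in LM8, and LM8 kept 1 under every alternative run. In Dunn, 2 were called with only probes well above background fitted, 3 in 1 fit over all 12 arrays and 2 with array weights, and 0 without any single array. Those settings called 167, 321 and 262 of all genes, in place of 1. For the lines at early passage (1 called), the count was 0 with normexp, 10 with quantile scaling, 2 without scaling (both higher in LM8, where the 1 called was lower), 11 with only probes well above background, 9 in 1 fit over all arrays, 15 with array weights, 2 with the methods' t-test and 0 without slide 1, and 0 to 11 on leaving out 1 array. The number of all genes called moved too, from 681 to 153 with normexp, 1883 with quantile scaling and 1927 without scaling. It was 2775 with only probes well above background, 2386 in 1 fit, 6657 with weights, 660 with the methods' t-test and 474 without slide 1. At late passage (4 members called), the count of members was 7 with quantile scaling, 1 without scaling, 10 with only probes well above background, 8 in 1 fit, 11 with weights, 7 with the methods' t-test and 7 without slide 1, and 1 to 8 on leaving out 1 array. Of all genes, 713 were called there, 1609 with quantile scaling, 484 without scaling and 2755 with only probes well above background. That number was 1481 in 1 fit, 3565 with weights, 1330 with the methods' t-test and 1424 without slide 1. With passages pooled (14 members), the count of members was 4 without scaling (3 higher and 1 lower, in place of 1 and 13) and 4 without slide 1, and 8 to 18 on leaving out 1 array. Of all genes, 4402 were called, 4738 without scaling and 1325 without slide 1. For the interaction (2 members), the count of members was 1 with normexp, 1 without scaling and 0 without slide 1, and 0 to 2 on leaving out 1 array. Of all genes, 122 were called, 28 with normexp, 61 without scaling and 83 without slide 1.

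With the slide as a replicate block, 0 members were called at early passage, 0 at late passage and 1 in the interaction. The block left 221, 78 and 101 of all genes called in these comparisons, in place of 681, 713 and 122. Without scaling, 7 pooled differences changed sign, to 0.13 for Itga5, 0.19 for Itga6, 0.21 for Itga9, 0.50 for Itgb1, 0.31 for Itgb7, 0.53 for Ilk and 0.35 for Fermt2. The pooled calls of Ilk (limma adjusted p = 0.0639) and Fermt2 (0.0604) were lost with normexp, and those of Fermt2 (0.0573) and Itgb7 (0.0522) under quantile scaling. As given above, the pooled call of Itgal was also lost with normexp, and those of Itga6 and Itga11 under quantile scaling. The unscaled values carry the brightness of each array, and for the other settings the cause was not tested. Of 546 values for single members, 419 kept direction and side of the threshold, 113 lost the threshold, 7 gained it and 7 changed sign. Probes near background limit what can be said of the 8 dim members.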
